A study of Mus musculus with 8 samples.

Results

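The 9 genes described here encode parts of the tight junction and of the apical polarity machinery: Ocln, Marveld2, F11r, Tjp1, Tjp3, Cgn, Crb3, Pard6b and Llgl2. They were found by the gene name on the probes of a whole-genome microarray, with older aliases allowed, and all 9 had at least 1 probe bright enough to test, among 18506 genes tested of 27828 names on the array. These names were carried by 16 probes, 15 of them testable.

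RNA was measured in microdissected mouse dorsal pancreatic epithelium at stage e12.5 on 8 single-colour Agilent arrays. The 4 mutant samples were homozygous for a floxed Sox9 allele and carried the Pdx1-Cre transgene, in which the Pdx1 promoter drives Cre recombinase in the early pancreas. The 4 wild-type samples were littermates homozygous for that allele but lacking the transgene, so that the controls also carried the floxed alleles and genotype cannot be told apart from the presence of Cre. The floxed allele was on a mixed FVB/N and C57Bl/6J background and the transgene on C57Bl/6J. The RNA of 3 embryos went into each pool, of which 250 ng was labelled. The design text speaks of a smaller number of biological replicates than the 4 arrays per genotype, so p-values measure the spread between these pools, part of which may be technical. The arrays lay on 3 slides, each scanned on its own: slide 1 held mutant replicate 3 and wild-type replicate 2, slide 2 held mutant replicates 1 and 4 and wild-type replicate 3, and slide 3 held mutant replicate 2 and wild-type replicates 1 and 4.

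Values are log2 signals relative to the 75th percentile of the same array, so that 0 is the 75th percentile, and a difference is mutant minus wild-type. Probes differ in how brightly they bind, so levels are compared between arrays and never between probes. On the 8 arrays that percentile was 372 to 640 in units of processed signal, and 59.4% to 77.7% of spots lay well above background on an array. The labels were checked against the targeted gene and the tissue's defining markers. Sox9, the targeted gene, had -0.61, -1.79, -0.0057 and 0.77 in mutant replicates 1 to 4, against 3.01, 2.13, 1.82 and 2.19 in wild-type replicates 1 to 4, and no annotation was used to place its probe relative to the deleted exons. It was 6.49-fold lower (log2 difference -2.70, SE 0.52, limma adjusted p = 0.0253). The epithelial defining genes Cdh1 and Epcam were above background on all 8 arrays and were lower in mutant pools by 5.70-fold and 4.35-fold (limma adjusted p of 0.014 and 0.0137). The Y-linked gene Ddx3y averaged -0.76 in mutant pools and -4.99 in wild-type pools (limma adjusted p = 0.111), and the part of embryo sex in the results was not tested.

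Tight junctions seal the space between epithelial cells near their apical side. Their strands are built from membrane proteins, the claudins and the MARVEL-domain proteins among them, which are tied to actin by cytoplasmic scaffolds of the zonula occludens and cingulin families. The Crumbs and Par complexes mark the apical side of the junction and the Scribble complex, with its lethal giant larvae partners, the basolateral side. In the embryonic pancreas these proteins are known for their place around the small lumens that open within the epithelium and join into the ductal tree.

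Sequence upstream of the gene starts was read from RefSeq promoter tables (GRCm38.p6) for 8 of the 9 genes, Llgl2 being the one with no match. The windows of 250 bases were searched on both strands for CAGGTG, an E-box known as a binding motif of the Snail and Zeb repressors, for the Sox-type motifs ACAATG and ACAAAG, and for AACCNGTT, the motif of Grainyhead-like factors. Shown are 3 genes that were lower in the mutant pools and 1 that did not pass the test, each in the direction of transcription with CAGGTG or its reverse complement CACCTG in capitals. The window ends at the base before the annotated start, and where a gene has several starts the one farthest upstream is shown.
Crb3, chr17:57061951-57062200, plus strand: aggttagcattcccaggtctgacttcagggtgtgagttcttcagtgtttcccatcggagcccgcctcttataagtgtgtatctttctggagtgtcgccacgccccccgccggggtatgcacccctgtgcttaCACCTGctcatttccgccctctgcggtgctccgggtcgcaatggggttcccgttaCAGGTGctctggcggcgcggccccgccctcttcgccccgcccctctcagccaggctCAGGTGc
Tjp3, chr10:81291582-81291831, minus strand: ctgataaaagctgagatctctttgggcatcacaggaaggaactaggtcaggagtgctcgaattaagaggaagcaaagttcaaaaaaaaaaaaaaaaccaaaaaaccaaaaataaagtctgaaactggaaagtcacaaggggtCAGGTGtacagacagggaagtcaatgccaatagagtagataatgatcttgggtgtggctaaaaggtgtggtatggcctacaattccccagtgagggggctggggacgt
Marveld2, chr13:100616972-100617221, minus strand: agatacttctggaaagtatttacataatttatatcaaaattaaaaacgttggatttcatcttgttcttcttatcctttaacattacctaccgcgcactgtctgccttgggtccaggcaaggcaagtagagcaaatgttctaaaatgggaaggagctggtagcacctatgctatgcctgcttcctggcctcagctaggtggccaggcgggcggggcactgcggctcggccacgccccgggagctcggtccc
Pard6b, chr2:168080754-168081003, plus strand: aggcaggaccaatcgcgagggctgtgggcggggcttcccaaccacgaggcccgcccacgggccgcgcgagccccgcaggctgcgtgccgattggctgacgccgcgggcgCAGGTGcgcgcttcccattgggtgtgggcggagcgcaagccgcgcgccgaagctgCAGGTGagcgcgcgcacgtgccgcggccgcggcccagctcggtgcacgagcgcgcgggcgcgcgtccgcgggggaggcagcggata

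The Crb3 window held CAGGTG 3 times, beginning 118, 63 and 7 bases before the start. The Tjp3 window held it once, at 108 bases, and the Pard6b window held it 2 times, at 141 and 86 bases. The Marveld2 window held none. Across the 8 genes with a window, 5 held CAGGTG in at least 1 window (Crb3, Tjp3, Ocln, F11r and Pard6b). Counted in the same way by gene, it occurred in 19.4% of the 27025 genes in the tables, and counted by window in 17.2% of all 32851 windows of this length. Tjp1, Cgn and Marveld2 had no match, so the letters occurred in genes that were lower in the mutant and in a gene that did not pass, and were missing from genes of both kinds. AACCNGTT was found in the Cgn window and in 1.79% of all windows, and did not overlap another motif there. Neither ACAATG, found in 10.7% of all windows, nor ACAAAG, found in 16.5%, was in any window of these genes. Base composition also varied, and G and C made up 77.6% of the Pard6b window, with 43 CpG sites, against 43.2% of the Tjp3 window shown, with 2 CpG sites. A match is a description of the letters and not of a bound site.

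In all, 6 of the 9 genes were lower in the mutant pools and none was higher. Tjp3, Ocln, Marveld2, F11r, Crb3 and Llgl2 passed the limma threshold of 0.05 on the p adjusted over all 18506 genes, at 1.60-fold to 4.86-fold lower, while Cgn, Tjp1 and Pard6b did not. The largest of these falls, that of Crb3, was smaller under other background treatment, as given below. Of all genes tested, 3.81% were called lower and 1.56% higher. For 7 of the 9 genes, Cgn being the seventh, every mutant pool lay below every wild-type pool, a pattern seen in 7.98% of all genes. The median log2 difference of the 9 genes was -1.74, against 0.016 over all genes. As these are bulk samples, fewer cells of a type and less RNA per cell cannot be told apart. Cell type markers differed between the same pools. The summed signal of 10 general epithelial markers, in multiples of the array's 75th percentile, was 41.9 to 59.2 in mutant pools and 98.6 to 133 in wild-type pools, with 8 of the 10 lower in limma. Such sums are weighted toward the brightest probes, here Krt8 and Krt18, which were 2.96-fold and 1.98-fold lower. The median log2 difference of the 10 was larger, at -2.22. That of 6 pancreatic epithelial factors was 3.71 to 13.0 in mutant pools and 33.9 to 58.1 in wild-type pools, with 6 of 6 lower. Markers of mesenchyme summed to 401 to 537 in mutant pools and 288 to 360 in wild-type pools (4 of 10 higher), and those of endothelium to 38.3 to 47.1 in mutant pools and 29.8 to 33.6 in wild-type pools (2 of 10 higher). Macrophage markers summed to 25.8 to 34.8 in mutant pools and 17.3 to 21.2 in wild-type pools (4 of 10 higher), and mesothelial markers to 7.11 to 10.7 in mutant pools and 3.45 to 5.43 in wild-type pools (2 of 6 higher). Hepatocyte genes summed to 44.2 to 113 in mutant pools and 15.2 to 22.7 in wild-type pools, with Alb and Afp the 2 of 5 that were higher. Most of these sums was Afp alone, at mean log2 signals of 6.02 in mutant and 3.78 in wild-type pools. Not called were Ttr (log2 difference -0.30, limma adjusted p = 0.677), Fgb (0.11, 0.921) and Apoa1 (1.29, 0.533). Erythroid genes overlapped at 112 to 155 in mutant pools and 87.1 to 151 in wild-type pools (0 of 6 called). No marker of these lists was below background on all arrays. Their part in the results was not tested.

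**Figure D1:**
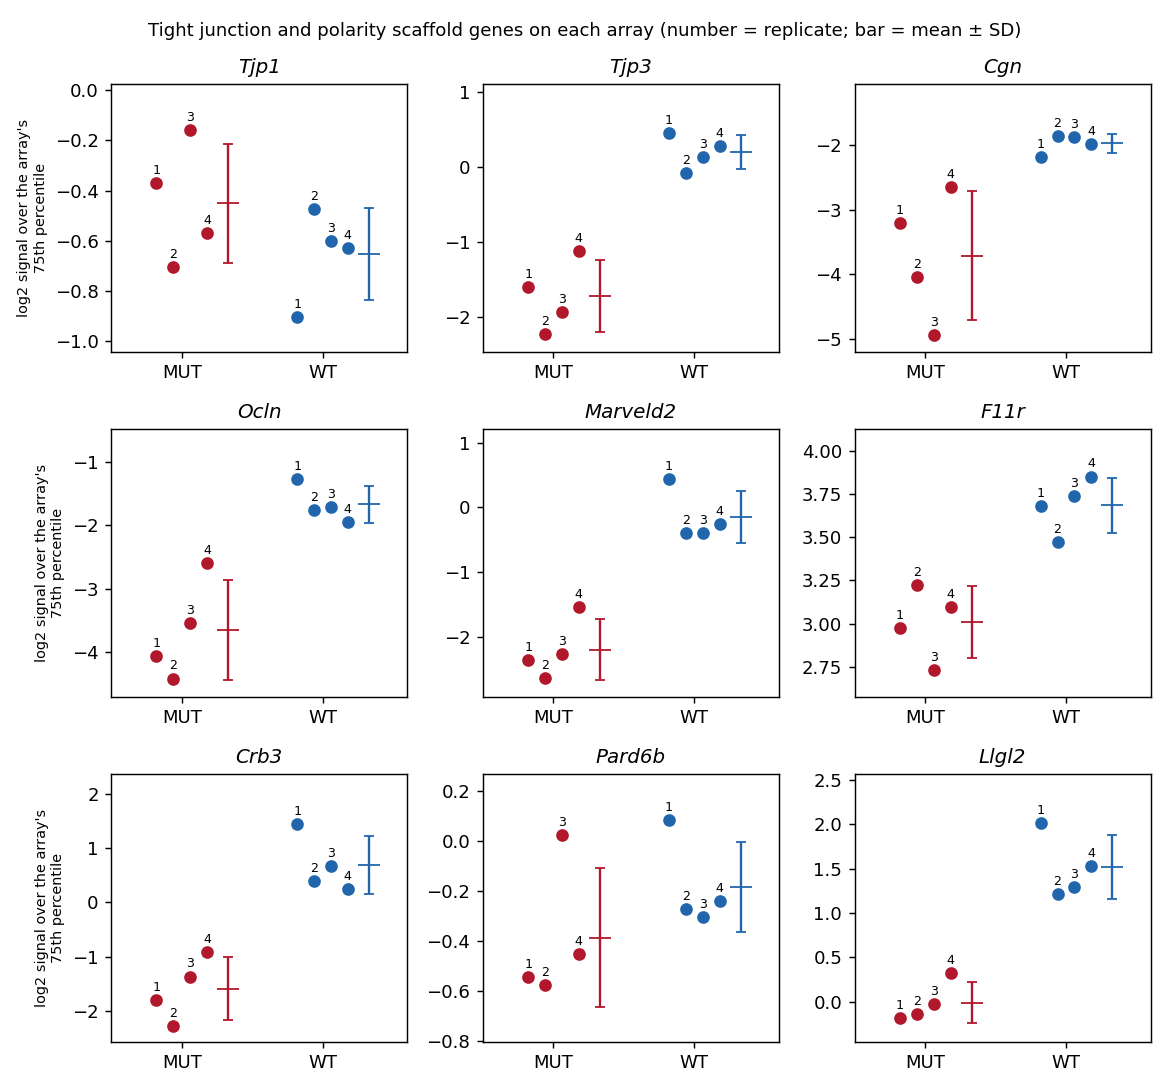
Log2 signal over the array's 75th percentile of each of the 9 genes in mutant (MUT, red) and wild-type (WT, blue) pools, one panel per gene with its own vertical scale. Numbers are replicates and the bar beside each group is mean ± SD (n = 4). The 2 groups lie apart in all panels but Tjp1 and Pard6b.

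Among the membrane proteins, Ocln encodes occludin, a MARVEL-domain protein of the tight junction strands. Its tested probe lies at chr13:101598416-101598475 (mm8, the build of all probe positions here). Signals were -4.06, -4.42, -3.55 and -2.60 in mutant replicates 1 to 4, against -1.26, -1.76, -1.71 and -1.95 in wild-type replicates 1 to 4. All mutant pools were below all wild-type pools, by at least 0.65, and mutant replicate 4 was the nearest to wild type. The means were -3.66 ± 0.79 in mutant and -1.67 ± 0.29 in wild-type pools (SD, n = 4 each), a log2 difference of -1.99 (SE 0.37), which is 3.97-fold lower (limma adjusted p = 0.0229). Within slides 1, 2 and 3 the differences were -1.79, -1.62 and -2.82. The size depended on how the signal was treated. Normexp, a model-based background correction run here with an offset of 50 units added to every signal, gave -0.92. The authors' own normalized value table gave -1.003, and both were still past the threshold. An added offset by itself shrinks the log2 differences of dim probes such as this one. The call was lost without mutant replicate 1, 2 or 3 or wild-type replicate 1, 3 or 4, at limma adjusted p of 0.0522 to 0.0694.

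A second Ocln probe, listed as spanning 1194 bases from 101640151 to 101641344 of chromosome 13, was well above background on 0 of 4 mutant and 1 of 4 wild-type arrays and was not tested. It is shown because it is the one probe of these genes that gave no usable level, and at least 1 reading frame runs through its 60 bases without a stop.
Ocln, second probe: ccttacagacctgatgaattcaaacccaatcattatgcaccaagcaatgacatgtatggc
Its measured means were -5.82 in mutant and -5.31 in wild-type pools. These lie at the floor, so no fold is given, and the fall in Ocln rests on a single probe.

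Marveld2 encodes tricellulin, the MARVEL-domain protein of tricellular contacts, where 3 cells meet. The probe at chr13:101696568-101696627 gave -2.36, -2.63, -2.26 and -1.53 in mutant replicates 1 to 4, against 0.44, -0.39, -0.39 and -0.26 in wild-type replicates 1 to 4. The groups were 1.14 apart at their nearest, and wild-type replicate 1 stood above the other wild-type pools. Means were -2.19 ± 0.47 in mutant and -0.15 ± 0.40 in wild-type pools (SD, n = 4 each), a log2 difference of -2.04 (SE 0.28) and a 4.12-fold lower signal (limma adjusted p = 0.00917). The slide differences were -1.87, -1.55 and -2.72. Marveld2 gave -1.60 with normexp background and -1.66 in the authors' value table, both still past the threshold.
A second probe, at chr13:101697589-101697648, was well above background on 2 mutant and 4 wild-type arrays. It is shown because it measures the same gene from other letters, within a stop-free reading frame.
Marveld2, second probe: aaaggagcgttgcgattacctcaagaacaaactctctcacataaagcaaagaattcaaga
Its signals were -5.34, -6.49, -6.59 and -4.20 in mutant replicates 1 to 4, against -2.61, -3.05, -2.92 and -2.95 in wild-type replicates 1 to 4. All mutant pools were again below all wild-type pools (limma adjusted p = 0.0229 over all probes), but no size is given, since 2 of the 4 mutant arrays did not measure this probe above background.

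F11r encodes junctional adhesion molecule A, an immunoglobulin-domain protein of tight junctions that is also found outside epithelia. Its probe at chr1:173300392-173300451 gave 2.98, 3.22, 2.73 and 3.10 in mutant replicates 1 to 4, against 3.68, 3.47, 3.74 and 3.85 in wild-type replicates 1 to 4. Here the groups did not overlap but were only 0.25 apart. The means were 3.01 ± 0.21 in mutant and 3.69 ± 0.16 in wild-type pools (SD, n = 4 each). F11r was 1.60-fold lower, with a log2 difference of -0.68 (SE 0.14, limma adjusted p = 0.0322), the smallest of the 6 that passed. Within slides 1, 2 and 3 it was -0.74, -0.70 and -0.54. The call was lost without mutant replicate 1, 3 or 4 or wild-type replicate 1, 3 or 4, at limma adjusted p of 0.0529 to 0.0972.

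Of the 3 scaffold genes, Tjp3 passed the threshold, Cgn missed it with groups that did not overlap, and the Tjp1 groups overlapped. Tjp3 encodes ZO-3, the zonula occludens scaffold known mainly from epithelia, and Tjp1 encodes ZO-1, which is also found at the adherens junctions of cells without tight junctions. The Tjp3 probe at chr10:80676934-80676993 gave -1.60, -2.23, -1.93 and -1.12 in mutant replicates 1 to 4, against 0.45, -0.076, 0.13 and 0.28 in wild-type replicates 1 to 4. All mutant pools were at least 1.04 below all wild-type pools. The means were -1.72 ± 0.47 in mutant and 0.20 ± 0.22 in wild-type pools (SD, n = 4 each). The log2 difference of -1.91 (SE 0.24) is 3.77-fold lower (limma adjusted p = 0.00813), and it was -1.85, -1.49 and -2.59 within slides 1, 2 and 3. Tjp3 gave -1.56 with normexp background and -1.62 in the authors' value table, both still past the threshold.

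Tjp1 was not called. The probe at chr7:65175767-65175826 gave -0.37, -0.70, -0.16 and -0.57 in mutant replicates 1 to 4, against -0.91, -0.47, -0.60 and -0.63 in wild-type replicates 1 to 4. The groups overlapped, with mutant replicate 2 below 3 of the 4 wild-type pools. Their means were -0.45 ± 0.24 in mutant and -0.65 ± 0.18 in wild-type pools (SD, n = 4 each), a log2 difference of 0.20 with a 95% interval of -0.15 to 0.55 (limma adjusted p = 0.595). The interval leaves out a fall as large as that of F11r. Slide differences were 0.31, 0.13 and 0.065.
The second Tjp1 probe, at chr7:65192218-65192277, lies in letters that hold a stop-free reading frame and is shown because it repeats this result from another place in the gene.
Tjp1, second probe: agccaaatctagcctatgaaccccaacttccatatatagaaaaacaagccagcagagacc
It was well above background on all 8 arrays and gave a log2 difference of 0.11 (SE 0.30, limma adjusted p = 0.936 over all probes).

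Cgn encodes cingulin, which links the zonula occludens scaffolds to actin and myosin. The probe of highest signal, at chr3:94846382-94846441, was well above background on 3 mutant and 4 wild-type arrays. It gave -3.21, -4.04, -4.94 and -2.65 in mutant replicates 1 to 4, against -2.19, -1.86, -1.87 and -1.99 in wild-type replicates 1 to 4. The groups did not overlap, with a gap of 0.46, but the mutant pools spread over a wider range than the wild-type pools. Means were -3.71 ± 1.002 in mutant and -1.98 ± 0.15 in wild-type pools (SD, n = 4 each), a log2 difference of -1.74 (SE 0.44, 95% interval -2.75 to -0.72), and the limma adjusted p of 0.0632 missed the threshold. An exact permutation test gave 0.0286, which is the lowest p possible for 4 pools against 4 and was found for each of the 7 genes whose groups did not overlap. Within slides 1, 2 and 3 the differences were -3.09, -1.06 and -1.96. Cgn passed with normexp background (-0.79, limma adjusted p = 0.00861), in the authors' value table (-0.90, 0.0402), with slide as a fixed (-1.94, 0.0308) or random block (-1.82, 0.0302) and without mutant replicate 4 (-2.09, 0.0239).
Of the 2 dimmer Cgn probes, the one at chr3:94858917-94858976 lies in a stop-free reading frame and is shown as the dimmest of the tested probes of this gene.
Cgn, dimmest probe: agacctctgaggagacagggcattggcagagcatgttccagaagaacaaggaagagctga
It was above background on 2 mutant and 3 wild-type arrays and gave a log2 difference of -0.98 (limma adjusted p = 0.441 over all probes). The remaining probe, at chr3:94861211-94861270, gave -1.43 (limma adjusted p = 0.156 over all probes), so all 3 lay below 0 and none passed.

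Of the 3 polarity genes, Crb3 and Llgl2 were lower and Pard6b did not pass. Crb3 encodes the epithelial Crumbs protein, a short transmembrane protein that anchors the apical Crumbs complex. Its probe at chr17:56750988-56751047 gave -1.80, -2.28, -1.36 and -0.91 in mutant replicates 1 to 4, against 1.45, 0.39, 0.68 and 0.26 in wild-type replicates 1 to 4. Mutant and wild-type pools were at least 1.17 apart, with wild-type replicate 1 the highest. The means were -1.59 ± 0.58 in mutant and 0.69 ± 0.53 in wild-type pools (SD, n = 4 each). Crb3 was 4.86-fold lower, with a log2 difference of -2.28 (SE 0.35, limma adjusted p = 0.0117), and by -1.76, -2.03 and -3.13 within slides 1, 2 and 3. Crb3 gave -1.82 with normexp background and -1.90 in the authors' value table, both still past the threshold. Its promoter window, shown above, was the one with 3 CAGGTG matches.

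Llgl2 encodes an epithelial lethal giant larvae protein of the basolateral side. Its probe, listed as spanning 272 bases from 115671341 to 115671612 of chromosome 11, gave -0.19, -0.14, -0.030 and 0.32 in mutant replicates 1 to 4, against 2.01, 1.22, 1.29 and 1.53 in wild-type replicates 1 to 4. The groups were 0.90 apart at their nearest. The mutant pools averaged -0.011 ± 0.23 and the wild-type pools 1.51 ± 0.36 (SD, n = 4 each), so that Llgl2 was 2.88-fold lower (log2 difference -1.53, SE 0.20, limma adjusted p = 0.00881). Slide differences were -1.25, -1.23 and -1.92.

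Pard6b encodes Par6 beta, the adaptor that joins atypical protein kinase C to Cdc42 and Par3 on the apical side. The probe of highest signal, at chr2:167791917-167791976, gave -0.54, -0.57, 0.024 and -0.45 in mutant replicates 1 to 4, against 0.084, -0.27, -0.30 and -0.24 in wild-type replicates 1 to 4. The other 3 mutant pools were below all wild-type pools, and mutant replicate 3 was within the wild-type range. The means were -0.39 ± 0.28 in mutant and -0.18 ± 0.18 in wild-type pools (SD, n = 4 each), a log2 difference of -0.20 with a 95% interval of -0.58 to 0.18 (limma adjusted p = 0.633). Its sign turned within slide 1, where it was 0.30, against -0.19 and -0.50 within slides 2 and 3.
Of the 2 further Pard6b probes tested, the one at chr2:167778568-167778627 lies in a stop-free reading frame and is shown because it reads another stretch of the gene than the other 2.
Pard6b, second probe: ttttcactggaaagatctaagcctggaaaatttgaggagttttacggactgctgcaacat
It was dim, well above background on 3 mutant and 3 wild-type arrays, and gave a log2 difference of -0.38 (limma adjusted p = 0.766 over all probes). The probe at chr2:167791217-167791277 gave -0.38 (limma adjusted p = 0.268 over all probes). None of the 3 Pard6b probes was called.

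Counted by probe, 7 of the 15 tested probes were lower and none higher at a limma adjusted p under 0.05, where 2.88% of all 27389 tested probes were called lower. The 7 were the single tested probes of Tjp3, Ocln, F11r, Crb3 and Llgl2 and both of Marveld2. No 2 probes of a gene were called in opposite directions.

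The order of the mutant pools was much alike across the genes that were lower. Mutant replicate 4 had the highest mutant signal in 5 of the 6, F11r being the exception, and wild-type replicate 1 had the highest wild-type signal in the same number of genes, again without F11r. Mutant replicate 4 also had the highest summed epithelial markers of the mutant pools, 59.2, and the lowest summed mesenchymal markers, 401. Its Sox9 signal, 0.77, was the highest of the mutant pools, and that of wild-type replicate 1, 3.01, the highest of the wild-type pools. The part of these values in the order was not tested. With both pools left out, a choice made after seeing the data, 5 of the 9 genes passed the threshold.

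**Figure D2:**
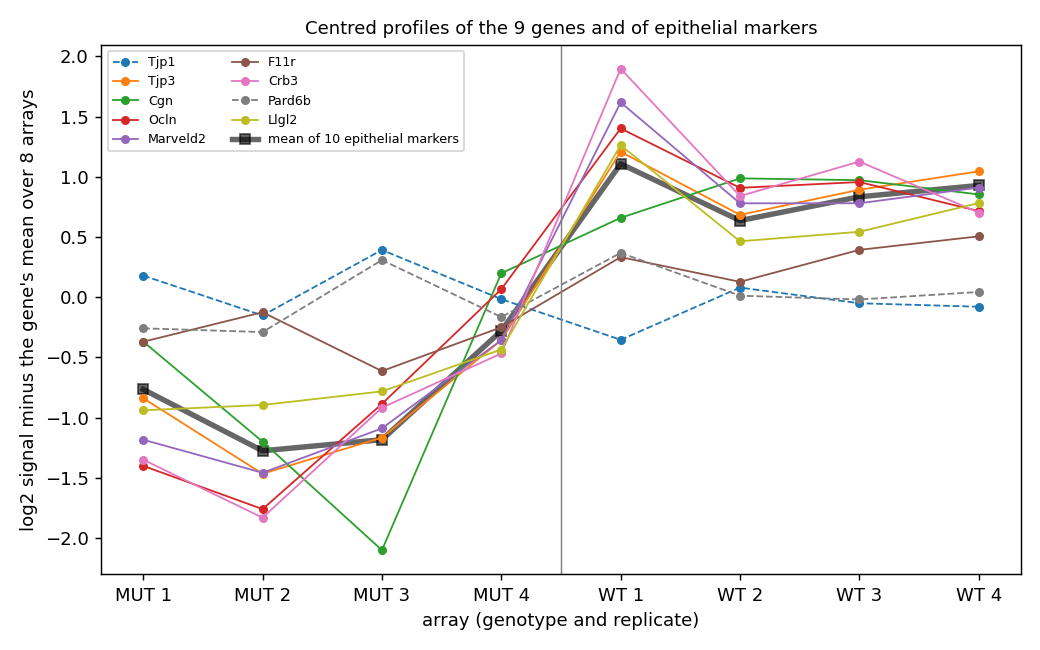
Each gene's log2 signal minus its own mean over the 8 arrays, by array, mutant pools left and wild-type pools right of the vertical line, with the mean of 10 epithelial markers as the thick grey line. Dashed lines are Tjp1 and Pard6b, whose groups overlap; of the other 7, F11r spans the smallest range and Cgn lies lowest, in mutant replicate 3.

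The 9 genes were then set against the epithelial markers of the same arrays. The mean log2 signal of the 10 markers was 0.64 ± 0.45 in mutant and 2.39 ± 0.20 in wild-type pools (SD, n = 4 each), a difference of -1.75 (exact permutation p = 0.0286). The 2 markers not called were Krt19 (-0.14, limma adjusted p = 0.864) and Krt7 (-0.53, 0.104), and the median difference of the 10 was -2.22. After the mean of the 10 markers was subtracted on each array, 3 of the 9 genes were called higher in the mutant and none lower, where 96.2% of all genes were called higher and 0.427% lower. Since the markers themselves fell, a gene of constant signal counts as higher here, and 6 of the 9 genes were not called so. Crb3 differed from the markers by -0.53 (SE 0.36, limma adjusted p = 0.148), Marveld2 by -0.29 (0.414), Ocln by -0.24 (0.515), Tjp3 by -0.16 (0.646), Cgn by 0.017 (0.964) and Llgl2 by 0.23 (0.526). Among these 6, the groups of Tjp3 alone did not overlap (exact permutation p = 0.0286). Relative to the markers Tjp3 had -2.46 to -2.26 in mutant and -2.23 to -2.16 in wild-type pools. Limma draws on the spread of all genes, to each of which the subtracted mean adds its own, and the SEs of the 9 genes were 0.35 to 0.37. The Tjp3 SDs were only 0.085 in mutant and 0.033 in wild-type pools, so its limma p does not measure its own spread. A gene not called here is not shown to equal the markers. F11r fell by less than the markers and stood 1.07 above them (SE 0.36, limma adjusted p = 0.00414). Pard6b stood 1.55 above them (8.81e-05) and Tjp1 1.95 (6.22e-06). Ocln and Cgn joined the genes called higher under normexp background, at 0.60 and 0.73 above the markers, and in the authors' value table, at 0.56 and 0.66. Both genes were dim, and the offset of 50 added with normexp shrinks the differences of dim genes more than those of bright ones. These calls are therefore not read as a change in the genes. With the median of the markers in place of their mean, the signs of Tjp3, Ocln and Marveld2 turned, to 0.20, 0.12 and 0.066, none past the threshold.

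Several of these genes have close relatives on the array, and the pairs were chosen after their values were seen. In 6 of the 10 pairs the member differed from its relative in every pool of one genotype against every pool of the other, at the smallest exact permutation p of 0.0286, not adjusted for the number of pairs. The member's own groups did not overlap in any of these pairs, so this p largely repeats that and is no separate support. Tjp3 fell by 2.12 more than Tjp1 on the log2 scale. Cgn and its relative paracingulin, Cgnl1, differed by -1.64, with Cgnl1 itself at -0.092 (limma adjusted p = 0.784). Crb3 and Crb2 differed by -2.83, since Crb2 gave 0.55 (limma adjusted p = 0.069). Llgl2 and Llgl1 differed by -1.69, with Llgl1 at 0.17 (limma adjusted p = 0.571). F11r differed from Jam2 by -1.25 and from Jam3 by -0.54, and Jam3 gave -0.14 (limma adjusted p = 0.612). Over the MARVEL genes no such split was seen. Ocln and Marveld2 differed by 0.054 (exact permutation p = 0.8286), and Marveld2 and Marveld3 by 0.40 (0.143), a value whose sign turned under normexp background, in the authors' value table and with the mean of all probes. Pard6b differed from Pard6a by -0.26 and from Pard6g by -0.38 (exact permutation p = 0.114 each).

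**Figure D3:**
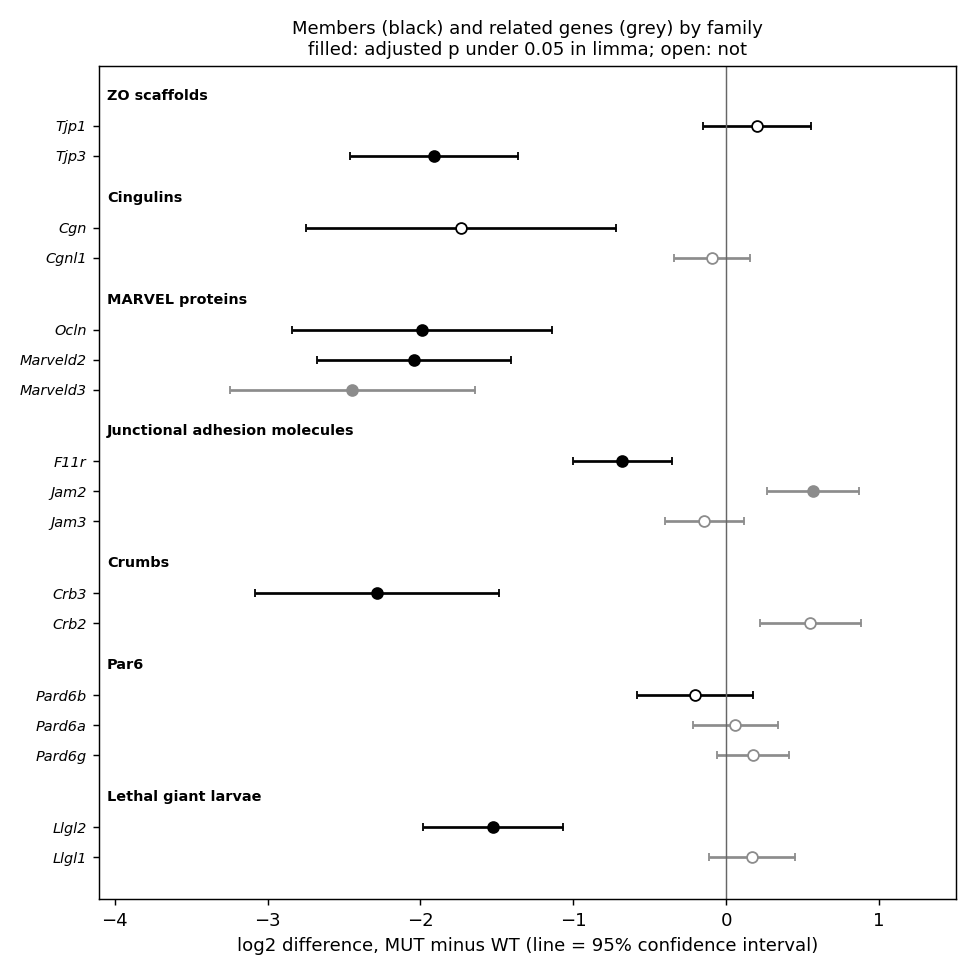
Log2 differences, mutant minus wild-type, with 95% confidence intervals (n = 4 each) for the 9 genes in black and their relatives in grey, grouped by family. Filled points passed the limma threshold. Tjp3, Crb3 and Llgl2 lie at -1.91, -2.28 and -1.53, and Tjp1, Crb2 and Llgl1 lie above 0.

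A wider list of 57 tight junction and polarity genes, chosen from textbook knowledge with earlier results of these data known, placed the 9 genes among their partners. Of its 53 tested genes 10 were lower, 1 was higher and 42 did not pass, with a median log2 difference of -0.12, where 3.81% of all genes were called lower and 1.56% higher. The claudins, which form the paracellular barrier and its pores, held 7 of the 10, among 14 tested. Those of smallest p were Cldn4 (-2.13, limma adjusted p = 0.00813), Cldn3 (-2.75, 0.0088) and Cldn6 (-2.34, 0.00886). Cldn3 and Cldn4 are claudins of many simple epithelia and Cldn6 is known from embryonic epithelia.

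Outside the claudins 3 of 39 tested genes were lower and 1 was higher, with a median of -0.064. Among 6 tested junction membrane proteins, Marveld3, another MARVEL-domain protein, was lower by 5.44-fold (limma adjusted p = 0.00984), and Ildr1, an angulin that places tricellulin at tricellular contacts, by 6.69-fold (0.0113), both above background on 3 of 4 mutant arrays. Both falls were smaller but still called under other background treatment, where normexp gave -1.44 for Marveld3 and -1.16 for Ildr1 and the authors' value table -1.54 and -1.28, against -2.44 and -2.74 as reported. Jam2, an adhesion molecule known from endothelium, was higher (0.57, limma adjusted p = 0.0468), but did not pass on leaving out any single array, at 0.0504 to 0.116. It also missed the threshold with normexp background (0.42, limma adjusted p = 0.0609) and with quantile normalization (0.62, 0.066). Without the filter on dim probes it missed too (0.57, limma adjusted p = 0.121), and it passed in the authors' value table (0.51, 0.0465). Of 12 plaque proteins Afdn, which encodes afadin and links nectins to actin, was lower (-0.72, limma adjusted p = 0.0112), and did not pass with the mean of all its tested probes (-0.58, 0.0505). None of the 7 tested genes of the Par complex, of the Crumbs complex or of the Scribble complex passed. The smallest p in those groups belonged to Prkcz, an atypical protein kinase C (-0.31, limma adjusted p = 0.402), to Crb2, and to Dlg4 (-0.27, 0.402).

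**Figure D4:**
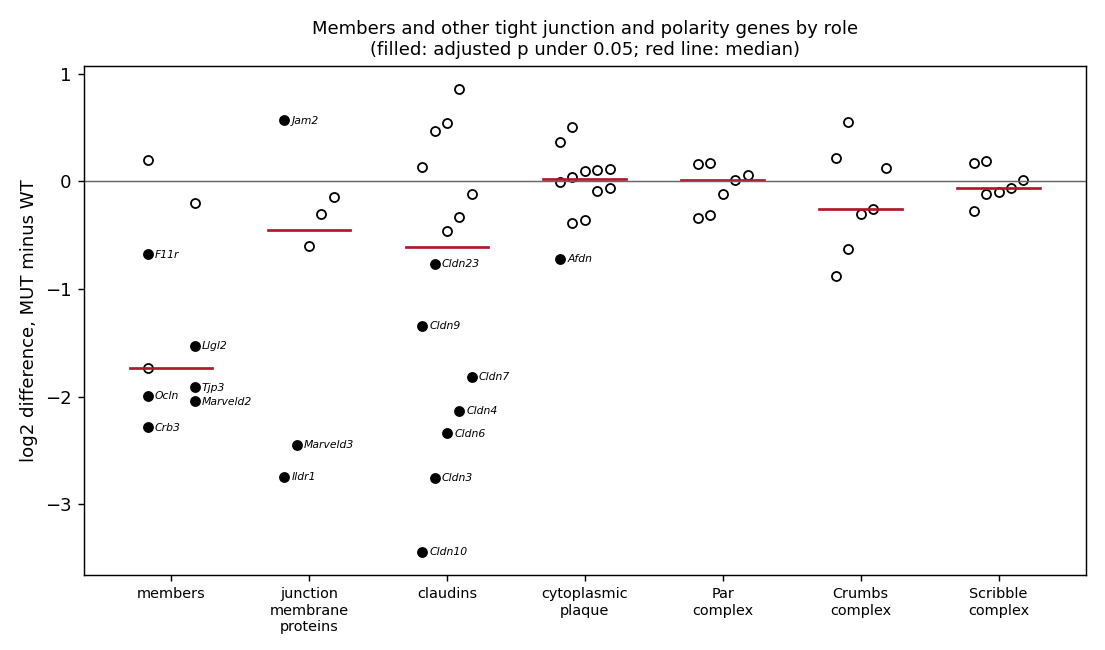
Log2 differences, mutant minus wild-type, of the 9 genes (left column) and of 53 other tight junction and polarity genes by role. Each point is a gene, filled where the limma adjusted p was under 0.05, and the red line is the group's median. The named filled points below 0 are mainly members, claudins and junction membrane proteins, and all points of the Par, Crumbs and Scribble columns are open, with the Crumbs column running from -0.88 to 0.55.

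The genes whose pattern over the 8 arrays was closest to the mean pattern of the 9 genes, each centred on its own mean, were Ugt2b34, Syngr1, Fgfr2, Arhgef28 and Akr1c12. Their root-mean-square difference from that pattern was 0.092 to 0.103 on the log2 scale, against a median of 0.779 over the other genes. Fgfr2 encodes a receptor for fibroblast growth factors and had a log2 difference of -1.40 (limma adjusted p = 0.00958). Ugt2b34 and Akr1c12 belong to families of near-identical genes whose probes may share signal, so their identity is uncertain.

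**Figure D5:**
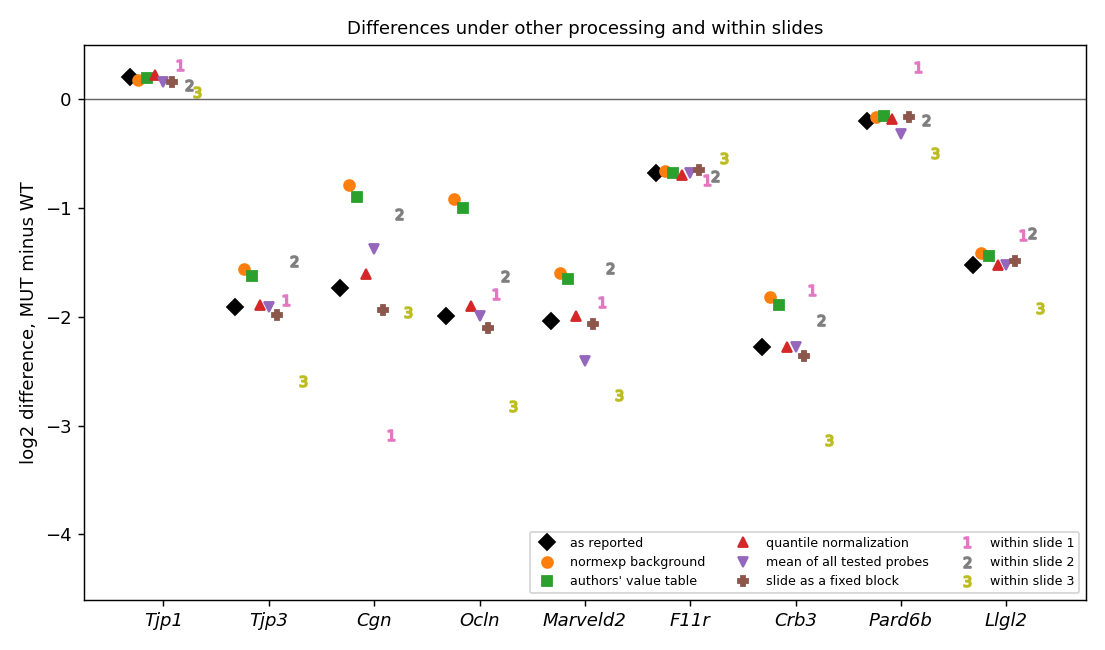
Log2 difference, mutant minus wild-type, of each of the 9 genes as reported (black diamond), under other processing (coloured symbols) and within each of the 3 slides (numbers). Cgn and Ocln move most with the background treatment, at -0.79 and -0.92 under normexp with its added offset. Pard6b within slide 1 is the one value of opposite sign to its reported value.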

How the data were processed

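Gene expression was measured in 8 RNA pools, 4 mutant and 4 wild-type, on single-colour arrays. The scanner files the authors deposited were written by Agilent Feature Extraction 9.5.3.1, per the file headers. Their processed signal is a linear intensity from which the software took background within each array, with no scaling across arrays. The deposited quality and control columns are flags and count as other than measurements. The authors' deposited values across arrays are intensity too, with a median of 227 on every array. Their scale is linear, they are neither centred nor ratios, and their background method is not given in the sources used here; the submitters' processing notes name limma.

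Control and outlier spots were left out, processed signals were put on the log2 scale and set relative to their array's 75th percentile, and replicate spots were averaged per probe. Probes well above background on at least 4 of 8 arrays were kept, and a gene was represented by its kept probe of highest mean. Mutant and wild-type pools were compared with limma 3.58.1 in R 4.3.3 (lmFit, eBayes). Its two-sided p-values were adjusted over 18506 genes by Benjamini-Hochberg and called under 0.05. Single values had an exact two-sided permutation test of all 70 assignments. The script was tested on simulated data. Python 3.11.15, pandas 2.3.3, matplotlib 3.10.9 and version 1.17.8 of the R package data.table were also used.

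The members and lists were chosen with earlier results of these data known. From each role group of the wider list up to 3 genes of smallest p past the threshold were named, or the 1 of smallest p where none passed, with the 5 genes of closest pattern, Sox9, Cdh1 and Epcam. Alternatives covered background, normalization, the filter, the choice of probe, slide and replicates. Normexp was run with an offset of 50 added to every signal. Same-numbered mutant and wild-type arrays deviated together with correlations of -0.35, -0.30, -0.0048 and 0.088, so the replicate numbers were not taken as pairs. No 2 arrays held identical values. The number of arrays limits the precision. Probe positions are those of the files, and no annotation was used to place them in exons.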

Additional observations from a re-analysis of the deposited data

Results flagged for a closer look

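In 2 cases a group of pools held one array far from the rest, out of 32 groups of 4 tested for such an array, where chance alone marks about 1 in 20. For Marveld2 the gap of wild-type replicate 1, at 0.44, to the nearest other wild-type pool was 0.843 of the group's range, above Dixon's 95% critical value for 4 arrays. For Pard6b the same pool, at 0.084, stood off by 0.839 of the range. Wild-type replicate 1 also had the highest summed epithelial markers of the 8 pools, 133, and its part in the 2 values was not tested.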

How the results depend on the processing

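Tjp3, Marveld2 and Llgl2 kept their direction and passed in all 18 settings with a test, Crb3 in 17, and Ocln and F11r in 10 each. Cgn passed in 5 of 17, and Tjp1 and Pard6b in none. With the replicate number as a block, 3 of the 9 genes (Tjp3, Marveld2 and Llgl2) and 3 of their 15 probes passed. On leaving out single arrays 4 to 6 genes and 4 to 7 probes passed, and without the filter on dim probes 4 genes. In the wider list 8 to 13 genes were called in the settings run, against 11 as reported. Over all genes the calls went down to 340 with the replicate block and 419 without the filter, up to 1529 with slide as a random block, and ranged from 395 to 976 on leaving out single arrays. Relative to the epithelial markers, 5 genes were called with normexp and 5 in the authors' value table. Signs turned for Pard6b within slide 1 (0.30), for Ocln relative to the markers with normexp (0.60), in the authors' table (0.56) and with the markers' median (0.12), and with that median for Tjp3 (0.20) and Marveld2 (0.066). Cgn relative to the markers turned with slide as a fixed block (-0.11) and ran from -0.14 to 0.33 on leaving out single arrays. Marveld2 minus Marveld3 turned with normexp (-0.16), in the authors' table (-0.12) and with the mean of all probes (-0.39). Pard6a ran from -0.019 to 0.11 on leaving out single arrays. The normexp setting added 50 units to every signal, which by itself shrinks the differences of dim probes more than those of bright ones. How much of these changes came from that offset was not tested, nor was the cause in the authors' table. Dim signal limits several probes of these genes. The Cgn probe of highest signal was well above background on 3 of 4 mutant arrays, and the 2 dimmer Cgn probes on 3 and 2. The second Ocln probe was so on 1 of 8 arrays and the second Marveld2 probe on 2 of 4 mutant arrays. The second Pard6b probe was so on 3 of 4 arrays of each genotype.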
